A study of Mus musculus with 16 samples.

Results

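The 8 genes described here encode the enzymes that write, copy and oxidise 5-methylcytosine in mouse DNA and 2 proteins that assist them. They are Dnmt1, Dnmt3a, Dnmt3b, Dnmt3l, Uhrf1, Tet1, Tet2 and Tet3. The genes were taken by symbol, each matched exactly 1 of the 23282 named loci in the deposited tables, and 8 of the 8 passed the filter on low counts that left 16130 genes to test. RNA was sequenced from embryoid bodies, the floating aggregates that embryonic stem cells form, after 6 days of SFEBq culture, a serum-free method that directs them to neural and retinal fates. The embryonic stem cells of all groups carried GFP knocked in at Rx, an eye field gene, and were grown in GMEM with 5% KSR, with 2% Matrigel from day 1.

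The 4 groups were wild type cells left untreated (WT), a Wdr5 knockout without doxycycline (KO), and the same knockout in which doxycycline, added at T12h or at T48h, induced human WDR5. They are named by these times, as T12h rescue and T48h rescue. Wdr5 encodes a scaffold subunit of the COMPASS/MLL complexes, which methylate histone H3 at lysine 4. The KO and both rescues come from a single knockout clone, number 3, and whatever else sets this clone apart from WT is part of each comparison with WT. Doxycycline was given in the rescues alone, so the drug and the induced protein cannot be told apart. The labels give neither the promoter of the transgene nor the moment from which 12 and 48 h were counted.

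Methylation of cytosine in CpG dinucleotides is set by the de novo methyltransferases DNMT3A and DNMT3B, with DNMT3L as a catalytically inactive partner that stimulates them. DNMT1 copies the pattern to the new strand after replication, and UHRF1 recruits it to hemimethylated DNA. The TET dioxygenases oxidise 5-methylcytosine, which opens routes to its removal. In the mouse, Dnmt3b, Dnmt3l and Tet1 are known for high levels in the early epiblast and in pluripotent cells, whereas Tet3 is prominent in neural tissue. Only transcripts were measured here, and neither protein nor DNA methylation.

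RefSeq start sites for all 8 genes gave 15 promoter windows (build GRCm38.p6, the assembly of mm10). The 250 bases before a start are shown for 4 genes, each at the start nearest to a principal transcript of GENCODE. Their transcripts shared a direction in KO against WT, Dnmt1 with Uhrf1 and Dnmt3b with Dnmt3l. For Dnmt3l another start was equally near, with 4 CpG in its window, and the one further upstream is shown. Capitals mark CpG, the dinucleotide that these enzymes act on, and each sequence runs 5′ to 3′ on the strand of its gene.
Dnmt1, chr9:20952980-20953229, minus strand: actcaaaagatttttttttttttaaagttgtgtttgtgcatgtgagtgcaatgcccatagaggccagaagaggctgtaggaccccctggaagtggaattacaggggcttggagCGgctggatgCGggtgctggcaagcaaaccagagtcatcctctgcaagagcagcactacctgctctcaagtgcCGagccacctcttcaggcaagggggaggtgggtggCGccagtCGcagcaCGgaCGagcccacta
Uhrf1, chr17:56303087-56303336, plus strand: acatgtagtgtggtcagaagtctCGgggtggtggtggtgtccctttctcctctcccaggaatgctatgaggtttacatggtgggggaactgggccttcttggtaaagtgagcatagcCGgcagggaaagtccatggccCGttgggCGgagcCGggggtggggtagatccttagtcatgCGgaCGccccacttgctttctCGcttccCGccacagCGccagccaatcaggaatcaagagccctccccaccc
Dnmt3b, chr2:153649199-153649448, plus strand: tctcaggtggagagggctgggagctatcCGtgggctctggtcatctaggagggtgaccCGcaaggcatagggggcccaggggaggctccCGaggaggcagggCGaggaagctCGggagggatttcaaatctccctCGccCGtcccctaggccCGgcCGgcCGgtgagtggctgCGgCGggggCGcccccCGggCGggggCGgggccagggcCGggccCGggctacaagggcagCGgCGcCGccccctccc
Dnmt3l, chr10:78042037-78042286, plus strand: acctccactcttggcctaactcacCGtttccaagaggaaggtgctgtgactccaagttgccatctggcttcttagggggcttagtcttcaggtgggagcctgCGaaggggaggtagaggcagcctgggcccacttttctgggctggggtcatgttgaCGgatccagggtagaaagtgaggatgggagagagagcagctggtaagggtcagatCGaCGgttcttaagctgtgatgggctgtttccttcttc
The Dnmt3b window held 21 CpG, as many as or more than 85.2% of the 32817 mouse windows of the same length. The Dnmt3l window held 5, the Dnmt1 window 7 and the Uhrf1 window 10, against a median of 6 over all windows. At another start of Uhrf1, 35 bases from a principal start, the window held 30 CpG, a count reached by 5.95% of all windows. At a Dnmt1 start 356 bases from a principal start it held 26, reached by 9.6%. Across the 15 windows the count ran from 2 at a further start of Dnmt1 to 51 at Tet2. An E2F-type motif, TTTNNCGC on either strand, was present in both Uhrf1 windows and in 1 other Dnmt1 window. That is 3 of 15 windows, from Uhrf1 and Dnmt1 alone, and the motif was in 4.28% of all windows. The motif holds a CpG, and the windows compared were not matched for their CpG count. The octamer ATGCAAAT, searched on both strands, was in 0 of the 15 windows and in 1.6% of all.

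The labels list 16 samples, which are 2 biological duplicates per group, each sequenced in 2 runs. The columns are named by group only, so the columns of 1 library were found by their agreement and summed, which left 8 libraries and n = 2 per group. The libraries held 32476672 to 65687435 estimated fragment counts in named loci. Replicates are called a and b and have no order. Nothing in the labels says that duplicates were separate cultures, so the p-values rest on library-to-library spread that may be technical. Levels are in CPM, with each library's size adjusted by TMM to make libraries comparable. A member had between 150 counts (Dnmt3l in T48h rescue replicate a) and 33192 counts (Dnmt3b in KO replicate a) per library. Wdr5 itself stood at 186 and 187 CPM in WT and fell to 32.5 and 28.4 in the KO. With doxycycline it reached 329 and 337 CPM from T12h and 280 and 294 from T48h. Whether reads of the human transgene were counted in the mouse gene was not tested. Of the 8 markers of pluripotent cells, 0 were without counts in any group, and their summed level was 123 to 129 CPM in WT and 679 to 680 in the KO. It was 31.9 to 36.2 CPM with early and 30.8 to 35 with late rescue. In these bulk samples, fewer cells of a type and less RNA per cell cannot be told apart.

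**Figure D1:**
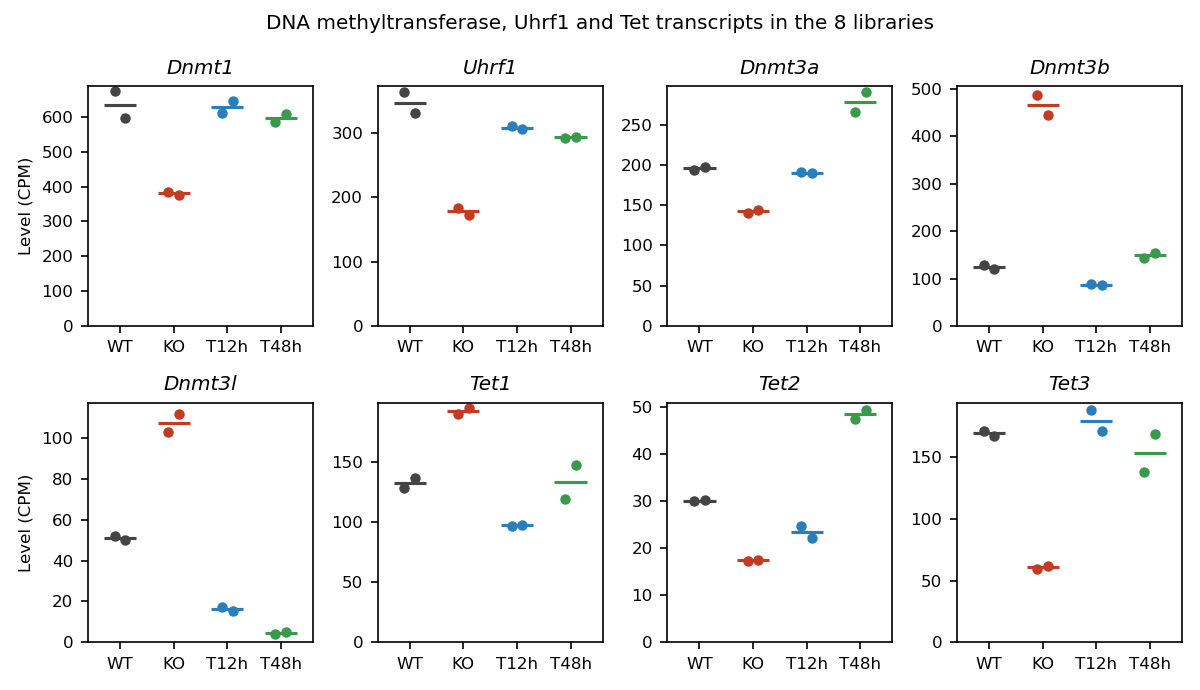
Level of each gene in CPM (vertical axis, from 0) in the 8 libraries, by group (horizontal axis). Points are the 2 libraries of a group and bars their mean. KO libraries are the highest for Dnmt3b, Dnmt3l and Tet1 and the lowest for the other 5 genes.

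The comparison of the KO with WT asked how loss of Wdr5 altered the transcripts of the methylation machinery. The maintenance genes Dnmt1 and Uhrf1 fell, as did Dnmt3a, Tet2 and Tet3, while Dnmt3b, Dnmt3l and Tet1 rose. Dnmt3b was 3.75-fold higher in the KO and Tet3 2.78-fold lower. In all, 8 of 8 members differed (3 higher, 5 lower; edgeR quasi-likelihood test, adjusted p under 0.05), against 64.1% of all genes tested, of which 31.7% of genes were higher and 32.4% lower. With so many genes moving, being called at all says little about a member, and the sizes and directions below carry the description. The members' median log2 fold change was -0.60, against 0.004 over all genes tested.

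Dnmt1 (chromosome 9, 20907209 to 20959888, minus strand, by the GENCODE annotation of GRCm38) stood at 674 and 598 CPM in WT and at 385 and 376 in the KO. Both KO libraries lay far below both WT libraries. The log2 fold change was -0.74 ± 0.07 (SE, edgeR adjusted p = 1.12e-06). Uhrf1 (chromosome 17, 56303321 to 56323486, plus strand), the reader of hemimethylated CpG, stood at 363 and 330 CPM in WT and 183 and 173 in the KO. Its groups did not overlap, with a log2 change of -0.96 ± 0.07 (edgeR adjusted p = 6.96e-08). These transcripts belong to genes that cycling cells use at replication. Of a list of 22 DNA replication genes 13 fell and 3 rose in the KO, against 32.4% and 31.7% of all genes tested. Their median log2 fold change was -0.30. Rrm1, a ribonucleotide reductase subunit, had -0.85 ± 0.08 (edgeR adjusted p = 9.37e-07), and Chaf1a, a chromatin assembly factor subunit, had -0.69 ± 0.08 (edgeR adjusted p = 4.66e-06). Rrm2, the partner subunit of Rrm1, had -0.55 ± 0.06 (edgeR adjusted p = 6.4e-06). The 3 that rose were Cdt1, Mcm5 and Slbp, with 0.60 ± 0.08, 0.48 ± 0.07 and 0.26 ± 0.09 (edgeR adjusted p = 2.14e-05, 5.58e-05 and 0.02). The summed level of the list was 4637 to 4718 CPM in WT and 4028 to 4094 in the KO. Its part in the fall of Dnmt1 and Uhrf1 was not tested.

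The de novo enzymes went opposite ways. Dnmt3a (chromosome 12, 3806007 to 3914443, plus strand) stood at 194 and 198 CPM in WT and 140 and 144 in the KO, lower in both KO libraries, by a log2 change of -0.46 ± 0.07 (edgeR adjusted p = 7.19e-05). Dnmt3b (chromosome 2, 153649450 to 153687730, plus strand) stood at 128 and 120 CPM in WT and 486 and 445 in the KO. The KO libraries were several times above WT, and the log2 fold change was 1.91 ± 0.08 (edgeR adjusted p = 2.37e-10). Dnmt3l (chromosome 10, 78041947 to 78063622, plus strand), the partner without catalytic activity, went from 52.1 and 50.2 CPM in WT to 103 and 112 in the KO. That is a log2 change of 1.07 ± 0.11 (edgeR adjusted p = 2.36e-06), with no overlap. The deposited loci do not all match the GENCODE spans printed here. The Dnmt3b locus runs on to 153727345 and the Dnmt3l locus starts earlier, at 78030021. The Tet1 locus ends at 62887437, short of the span printed below. The Dnmt3l gene overlaps Aire on the other strand, with 67 of its 2988 exonic bases shared, and Aire was listed at 0.27 to 2.41 CPM over the 8 libraries. The annotation also places Dnmt3aos, Dnmt3bos, Gm42567 and B230319C09Rik opposite Dnmt3a, Dnmt3b, Tet2 and Tet3. Whether counting used strand is not stated, so reads of such partners cannot be told apart from those of the members.

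Among the dioxygenases Tet1 rose and the other two fell. Tet1 (chromosome 10, 62804570 to 62908996, minus strand), the family member typical of embryonic stem cells, stood at 128 and 137 CPM in WT and 189 and 194 in the KO, a log2 change of 0.53 ± 0.09 (edgeR adjusted p = 0.000212). Tet2 (chromosome 3, 133463679 to 133545139, minus strand), which lacks the CXXC domain of its paralogs, stood at 30 and 30.4 CPM in WT and 17.4 and 17.5 in the KO. Its log2 fold change was -0.79 ± 0.12 (edgeR adjusted p = 5.04e-05). Tet3 (chromosome 6, 83362373 to 83459084, minus strand) stood at 171 and 167 CPM in WT and 59.6 and 62.1 in the KO, a log2 change of -1.47 ± 0.10 (edgeR adjusted p = 2.06e-08). For none of the 3 did KO and WT libraries overlap, and the share of all genes without overlap was not counted. Markers of pluripotent cells moved in the KO with Dnmt3b, Dnmt3l and Tet1, with 8 of 8 higher and the summed levels given above. Markers of the eye field moved with Tet3, with 6 of 6 tested lower and a summed level of 1172 to 1247 CPM in WT against 4.72 to 7.95 in the KO. Endoderm markers were 5 higher and 1 lower of 6, at 108 to 110 CPM in WT and 355 to 356 in the KO. Endothelial markers were 4 higher and 1 lower of 5, cardiac markers 4 higher and 2 lower of 7, and fibroblast markers 1 higher and 2 lower of 7. The part of these marker changes in the members' changes was not tested.

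**Figure D2:**
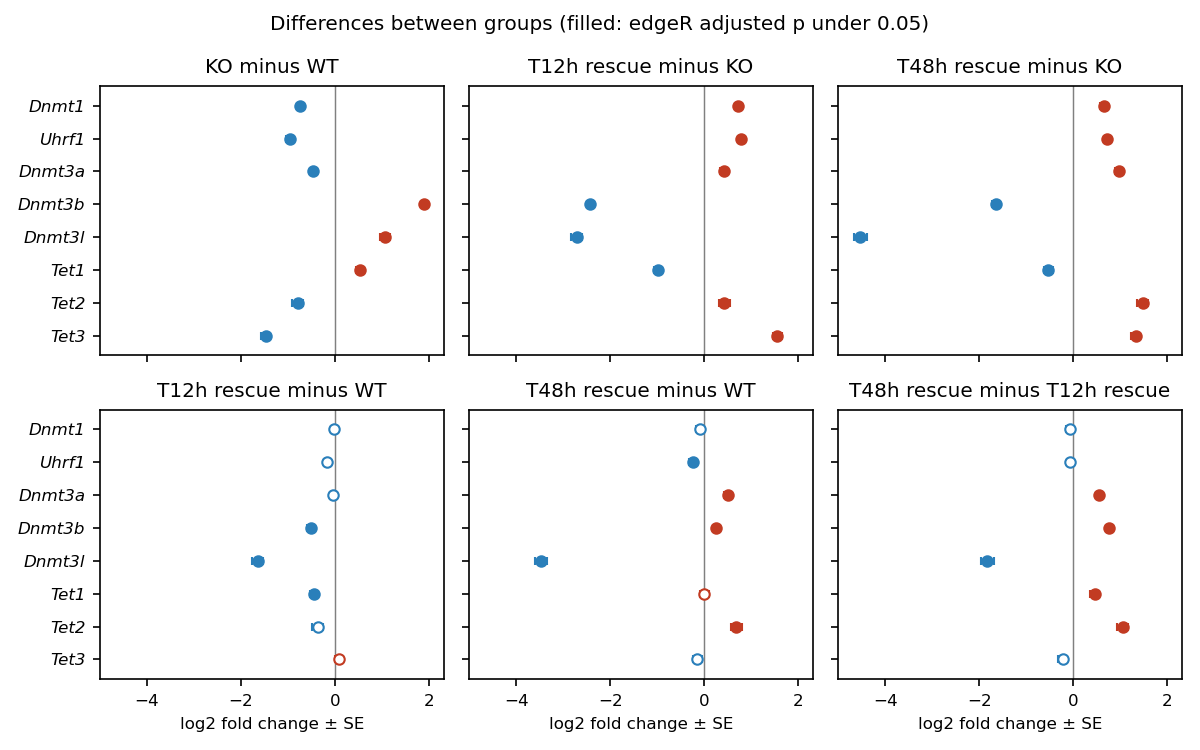
log2 fold change with its SE (horizontal axis) of each gene (vertical axis) in the 6 comparisons, one panel each. Filled points passed the edgeR test at an adjusted p under 0.05 and open points did not. All 8 points are filled in the panels of KO against WT and of both rescues against the KO.

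Early induction of WDR5 was set against the KO next. All 8 members differed (5 higher, 3 lower), against 64.8% of all genes tested (32.8% higher, 32.1% lower), and each moved opposite to its change in the KO. Since both comparisons share the KO libraries, this opposition is given as values only. Dnmt1 rose to 613 and 647 CPM and Uhrf1 to 311 and 305, log2 fold changes of 0.73 ± 0.07 (edgeR adjusted p = 1.31e-06) and 0.79 ± 0.07 (edgeR adjusted p = 4.32e-07). Dnmt3a rose to 191 and 190 CPM, a log2 change of 0.42 ± 0.07 (edgeR adjusted p = 0.000155). Tet3 rose to 188 and 171 CPM, 2.95-fold above the KO (log2 fold change 1.56 ± 0.09, edgeR adjusted p = 1.11e-08). Tet2 rose to 24.6 and 22.2 CPM, with a log2 change of 0.43 ± 0.12 (edgeR adjusted p = 0.00556). This was the weakest of the 8 calls and was lost with limma on log2(FPKM + 1) without a filter, at a log2 fold change of 0.29 (limma adjusted p = 0.0605). Of the DNA replication list 16 of 22 rose and 0 fell, against 32.8% and 32.1% of all genes, and its summed level reached 5166 to 5368 CPM.

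Dnmt3b, Dnmt3l and Tet1 fell in the T12h rescue. Dnmt3b dropped to 88.4 and 85.7 CPM, 5.35-fold below the KO (log2 fold change -2.42 ± 0.08, edgeR adjusted p = 3.16e-11). Dnmt3l dropped to 17.4 and 15.4 CPM, 6.54-fold below (log2 fold change -2.71 ± 0.12, edgeR adjusted p = 5.24e-10). Tet1 dropped to 97 and 97.5 CPM, a log2 change of -0.98 ± 0.09 (edgeR adjusted p = 8.26e-07). The libraries of the T12h rescue and the KO did not overlap for any member. With 2 libraries per group this alone says little, and its share over all genes was not counted. All 8 pluripotent markers fell as well, and 6 of 6 eye field markers rose, to a summed level of 1335 to 1350 CPM. Their part in the result was not tested.

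With induction from T48h, again 8 of 8 members differed from the KO (5 higher, 3 lower), against 67.3% of all genes tested (34.2% higher, 33.2% lower). The same 5 genes were higher and the same 3 lower as in the T12h rescue, from the same KO libraries. Dnmt3l showed the largest change of the 8, down to 4.09 and 5.15 CPM or 23.2-fold below the KO (log2 fold change -4.53 ± 0.14, edgeR adjusted p = 1.64e-11). Dnmt3b was at 144 and 154 CPM (log2 fold change -1.65 ± 0.08, edgeR adjusted p = 7.23e-10). Tet1 was at 119 and 147 CPM (log2 fold change -0.53 ± 0.09, edgeR adjusted p = 0.000222). Its replicates lay further apart than in the other groups, and both were below the KO.

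Tet2 rose in the T48h rescue to 47.6 and 49.4 CPM or 2.78-fold above the KO (log2 fold change 1.48 ± 0.12, edgeR adjusted p = 1.18e-07). Tet3 rose to 138 and 168 CPM (log2 fold change 1.33 ± 0.09, edgeR adjusted p = 4.32e-08) and Dnmt3a to 265 and 290 CPM, with a log2 change of 0.97 ± 0.07 (edgeR adjusted p = 5.56e-08). Dnmt1, at 586 and 609 CPM, and Uhrf1, at 292 and 294 CPM, rose by log2 fold changes of 0.65 ± 0.07 and 0.72 ± 0.07 (edgeR adjusted p = 3.38e-06 and 9.73e-07). The DNA replication list was mixed here, with 12 higher and 4 lower of 22 and a summed level of 4526 to 4646 CPM. Eye field markers stayed low, at 18.4 to 20.6 CPM with 2 higher and 1 lower of 6 tested, while Tet3 was at the levels just given. Markers of cardiac mesoderm moved with this rescue, with 7 of 7 tested higher and a summed level of 1858 to 1877 CPM against 221 to 231 in the KO. Endothelial markers did so too, 5 of 5 higher at 726 to 757 CPM against 120 to 129. Fibroblast markers had 4 of 7 higher and 1 lower, at 806 to 871 CPM against 16.6 to 19.7. Endoderm markers had 1 of 6 higher and 5 lower, and pluripotent markers 0 of 8 higher and 8 lower. The part of these cell types in the changes of Dnmt3a and Tet2 was not tested.

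The T12h rescue was then set against WT. Dnmt3b, Dnmt3l and Tet1 were lower and 0 were higher, so 3 of 8 members were called, against 14% of all genes tested (7.9% higher, 6.11% lower). That background count, 2261 genes, fell to 1070 without WT replicate a, 1217 without T12 replicate a and 1316 without T12 replicate b. Dnmt3l stood 3.12-fold below WT (log2 fold change -1.64 ± 0.12, edgeR adjusted p = 3.72e-06) and Dnmt3b 1.43-fold below (log2 fold change -0.51 ± 0.08, edgeR adjusted p = 0.000605). Tet1 had a log2 change of -0.45 ± 0.09 (edgeR adjusted p = 0.00603). The Tet1 call was lost without WT replicate b (edgeR adjusted p = 0.0532), without T12 replicate a (edgeR adjusted p = 0.0559), without T12 replicate b (edgeR adjusted p = 0.051) and with limma on FPKM. Tet2 had a log2 fold change of -0.37 ± 0.11 and missed the threshold by little (edgeR adjusted p = 0.0511). It passed with RLE scaling, upper-quartile scaling, DESeq2 or only these groups in the fit, at adjusted p of 0.0325 to 0.0476. Dnmt1, Dnmt3a, Uhrf1 and Tet3 had log2 fold changes of -0.01 ± 0.07, -0.04 ± 0.07, -0.17 ± 0.07 and 0.09 ± 0.09, and none passed the test (edgeR adjusted p = 0.936, 0.765, 0.129 and 0.61). Of the pluripotent markers 8 of 8 were lower than WT too, at the summed levels given above, and their part was not tested.

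In the T48h rescue 5 of 8 members differed from WT (3 higher, 2 lower), against 47.3% of all genes tested (23.9% higher, 23.4% lower), a share near the background. Dnmt3l was 11.1-fold below WT (log2 fold change -3.47 ± 0.13, edgeR adjusted p = 1.6e-10). Tet2 was 1.61-fold above (log2 fold change 0.68 ± 0.11, edgeR adjusted p = 0.000256) and Dnmt3a 1.42-fold above (log2 fold change 0.50 ± 0.07, edgeR adjusted p = 5.2e-05). The remaining 2 calls were small. Dnmt3b was higher by a log2 change of 0.26 ± 0.08 (edgeR adjusted p = 0.012), which was lost with upper-quartile scaling and without WT replicate b, KO replicate a, T12 replicate a, T12 replicate b or T48 replicate b (edgeR adjusted p up to 0.243). Uhrf1 was lower by -0.24 ± 0.07 (edgeR adjusted p = 0.0115), which was lost without WT replicate a (edgeR adjusted p = 0.054). Tet1, Tet3 and Dnmt1 were not called (edgeR adjusted p = 0.951, 0.232 and 0.331), with T48h and WT libraries overlapping for each. Dnmt1 was called lower with upper-quartile scaling (edgeR adjusted p = 0.0245) or without WT replicate b (edgeR adjusted p = 0.0459), and Tet3 with that scaling (edgeR adjusted p = 0.0297) or without T48 replicate b (edgeR adjusted p = 0.0194). Cell type markers moved in this comparison too. Against WT 7 of 7 cardiac, 5 of 5 endothelial and 5 of 7 fibroblast markers were higher and 6 of 6 eye field markers lower, with median log2 fold changes of 7.71, 5.79, 1.73 and -6.87. Pluripotent markers were 0 higher and 5 lower of 8, with a median of -2.41, while Dnmt3b and Tet1 were as given above. Endoderm markers were 3 higher and 1 lower of 6. The part of all these markers in the members' changes was not tested.

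The rescues were compared with each other. With all groups taken after 6 days, a later start also leaves less time with doxycycline, and these cannot be told apart. Wdr5 was lower in the T48h rescue, by a log2 change of -0.21 ± 0.07 (edgeR adjusted p = 0.0285). Here 5 of 8 members differed (4 higher, 1 lower), against 50.2% of all genes tested (24.9% higher, 25.3% lower), also near the background. Later induction left Dnmt3l lower, by a log2 change of -1.82 ± 0.13 (edgeR adjusted p = 9.12e-08). It left Tet2 higher by 1.05 ± 0.11 (edgeR adjusted p = 5.49e-06), Dnmt3b by 0.77 ± 0.08 (edgeR adjusted p = 1.93e-06), Dnmt3a by 0.55 ± 0.07 (edgeR adjusted p = 2.41e-05) and Tet1 by 0.45 ± 0.09 (edgeR adjusted p = 0.00117). The libraries of the rescues did not overlap for any of the 8 members, called or not, so this does not set the called genes apart. With 2 libraries per group it says little, and the share of all genes without overlap was not counted. Dnmt1 and Uhrf1 had log2 fold changes of -0.08 ± 0.07 and -0.07 ± 0.07 (edgeR adjusted p = 0.409 and 0.42). Tet3 had -0.23 ± 0.09 (edgeR adjusted p = 0.0562), and was called in 7 of the 18 alternatives tried. These were upper-quartile scaling, no filter on low counts, and leaving out WT replicate a, WT replicate b, KO replicate a, T12 replicate b or T48 replicate b (edgeR adjusted p = 0.00402 to 0.0397). Between the rescues 6 of 6 eye field markers were lower after late induction, with a median log2 fold change of -6.69, and 7 of 7 cardiac markers higher, with a median of 8.15. Endothelial markers were higher in 5 of 5 and fibroblast markers in 6 of 7. Pluripotent markers were mixed, with 3 higher and 4 lower of 8, and endoderm markers were 1 higher and 2 lower of 6. The part of these markers in the difference between the rescues was not tested.

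Levels of different genes were compared per transcript length, as the authors' FPKM averaged over the runs of a library. In WT the order was Dnmt1 (101 ± 9.03 FPKM), Uhrf1 (85.1 ± 5.97), Dnmt3l (28.6 ± 0.814), Dnmt3b (26.8 ± 1.69), Dnmt3a (18.3 ± 0.279), Tet3 (12.5 ± 0.152), Tet1 (8.05 ± 0.429) and Tet2 (2.97 ± 0.0115; SD, n = 2 each). No neighbours in that order overlapped, although Dnmt3l and Dnmt3b came as near as 28.04 and 27.99 FPKM. In the KO Dnmt3b led at 104 ± 5.66 FPKM, ahead of Dnmt1 at 63.7 ± 0.609 and Dnmt3l at 63.2 ± 4.25, and these last overlapped. Uhrf1 followed at 46.2 FPKM, then Dnmt3a at 14, Tet1 at 12.2, Tet3 at 4.81 and Tet2 at 1.77. In the T12h rescue Dnmt1 and Uhrf1 led again at 99.9 and 75.7 FPKM, and Dnmt3l came sixth at 9.16. In the T48h rescue Dnmt3l was last at 2.58 FPKM, below Tet2 at 4.63, and no neighbours overlapped in either rescue.

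The shares of the paralogs within each family differed between groups, though Dnmt3b stayed above Dnmt3a per transcript length in every library. In the T12h rescue the FPKM ratio of Dnmt3b to Dnmt3a was only 1.04 to 1.06. This order rests on transcript lengths from an annotation that is not named, and in CPM Dnmt3a was the higher in WT and both rescues. Dnmt3b made up 60.8% and 58.1% of the summed Dnmt3a and Dnmt3b FPKM in WT and 88.7% and 87.5% in the KO. With rescue from T12h it made up 51.6% and 51%, and from T48h 55.4% and 54.6%. The KO stood apart from the other groups, while the libraries of WT and of both rescues lay between 51% and 60.8%. The sum of these genes was 44.1 to 46.1 FPKM in WT and 114 to 121 in the KO. Among the dioxygenases Tet3 led in WT with 52.2% and 54.1% of the summed Tet FPKM, and Tet1 led in the KO with 64.8% and 65.3%. The T12h rescue had the highest Tet3 share, 60.8% and 61.8%, and the T48h rescue the highest Tet2 share, 18.5% and 20.1%. The Tet1 to Tet3 ratio was 0.644 ± 0.0421 in WT and 2.55 ± 0.0549 in the KO (SD, n = 2 each). It was 0.451 ± 0.0265 after early and 0.723 ± 0.01 after late induction. The summed Tet FPKM moved less, with means of 23.5 ± 0.289 in WT, 18.8 ± 0.447 for KO, 21.6 ± 1.2 for T12h rescue and 24.1 ± 3.17 for T48h rescue (SD, n = 2 each). With 2 libraries against 2, an exact two-sided permutation test cannot go below p = 0.33, so these shares are given with their spread alone.

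**Figure D3:**
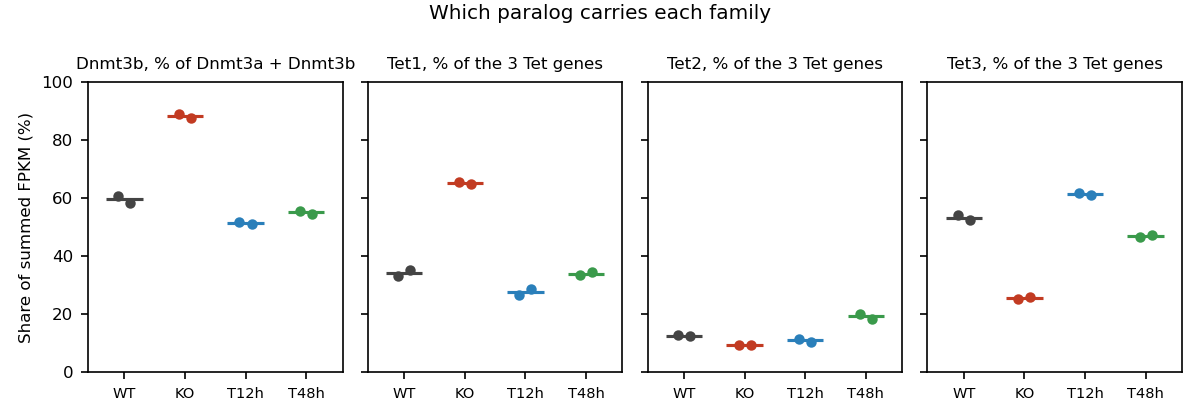
Share of Dnmt3b in the summed Dnmt3a and Dnmt3b FPKM, and of each Tet gene in the summed Tet FPKM (vertical axes, in percent), by group. Points are the 2 libraries and bars their mean. The KO has the highest Dnmt3b and Tet1 shares and the lowest Tet3 share.

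The genes around the methylation machinery were described with 7 lists, by how many genes passed the same test. In the KO against WT 64.1% of all genes tested passed (31.7% higher, 32.4% lower), and a list's count near that share says little about the list. Readers of methylated CpG had 0 higher and 5 lower of 7 in the KO, with a median log2 fold change of -0.49 against 0.004 over all genes. The methyl-CpG binding gene Mbd1 went from 60.4 to 33.3 CPM (edgeR adjusted p = 2.6e-06) and Zbtb33, which encodes Kaiso, had a change of -0.49 ± 0.09 (edgeR adjusted p = 0.000236). In the rescues 6 and 7 of the 7 readers were higher than in the KO. Partners of the methyltransferases were mixed, with 4 higher and 6 lower of 13 in the KO. Cdca7, a partner of the remodeler HELLS, had -0.78 ± 0.08 (edgeR adjusted p = 1.08e-06) and its relative Cdca7l -1.37 ± 0.09 (edgeR adjusted p = 4.1e-08). Hells itself rose, with 0.55 ± 0.08 (edgeR adjusted p = 4.1e-05). The histone H3 lysine 9 methyltransferase gene Ehmt1 had -0.65 ± 0.08 (edgeR adjusted p = 5.81e-06). Of the Tet partners and cofactor genes 1 rose and 4 fell of 6. Cxxc4, whose protein binds TET2, went from 71.4 to 18.3 CPM, a log2 change of -1.96 ± 0.08 (edgeR adjusted p = 3.93e-10). Idh2, which supplies 2-oxoglutarate, had -1.29 ± 0.08 (edgeR adjusted p = 1.58e-08).

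Base excision and demethylation genes were 4 higher and 6 lower of 14 tested in the KO. Gadd45g and Gadd45a, which are also stress response genes, had log2 fold changes of 3.13 ± 0.21 (edgeR adjusted p = 2.82e-08) and 1.11 ± 0.14 (edgeR adjusted p = 9.62e-06), and the repair scaffold gene Xrcc1 had -0.54 ± 0.09 (edgeR adjusted p = 0.000231). Methyl donor genes were 5 higher and 2 lower of 9. The cytosolic folate enzyme gene Mthfd1 had 1.21 ± 0.07 (edgeR adjusted p = 4.57e-09), while the mitochondrial Shmt2 and Mthfd2 had -1.01 ± 0.08 (edgeR adjusted p = 1.7e-07) and -1.46 ± 0.13 (edgeR adjusted p = 3.85e-07). Germline genes whose promoters are known to be methylated in somatic cells were 10 higher and 2 lower of 15 in the KO, with a median of 2.29. Tex19.1 went from 5.13 to 45.8 CPM (edgeR adjusted p = 1.07e-08), Ddx4, a germ cell helicase, from 2.71 to 20.8 CPM (edgeR adjusted p = 1.96e-07) and Taf7l, a germ cell TFIID subunit, from 0.756 to 20.1 CPM (edgeR adjusted p = 9.4e-08). The 2 that fell were Brdt, a testis bromodomain gene, and Sycp3, a synaptonemal complex gene, with log2 fold changes of -1.06 ± 0.42 (edgeR adjusted p = 0.039) and -1.71 ± 0.31 (edgeR adjusted p = 0.000318). Against the KO, 11 of the 15 fell in the T12h rescue and 0 rose, and 12 fell and 1 rose in the T48h rescue. Methylation of these promoters was not measured.

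**Figure D4:**
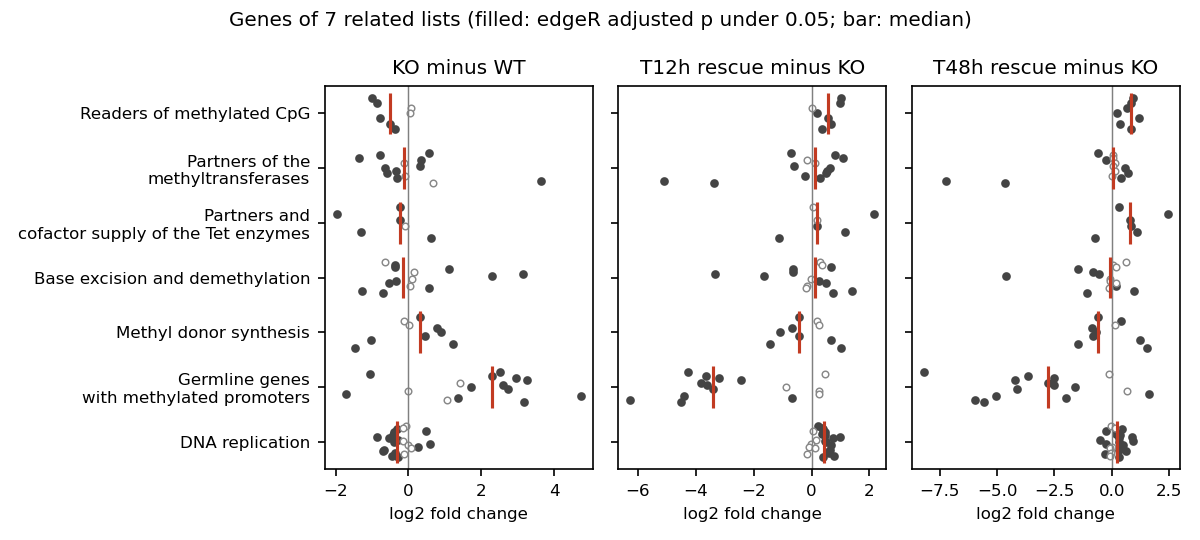
log2 fold change (horizontal axis) of every tested gene of the 7 lists (vertical axis) in the KO against WT and in each rescue against the KO. Filled points passed the edgeR test at an adjusted p under 0.05 and red bars are list medians. The germline list has its median at 2.29 in the KO panel and the readers at -0.49.

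The genes whose pattern was most like each member's were taken as the 3 with the highest Pearson correlation of log2 CPM over the 8 libraries among 10444 other genes at a mean of 5 CPM or more. The 8 points are 4 groups of 2, so the measure mainly follows the group means, and it is given without a test. For Dnmt1 they were Gpatch8, Zc3h7b and Anp32e (r of 0.995 to 0.996), and for Uhrf1 they were Epb4.1, Hnrnph3 and Rab11fip2 (0.995 to 0.998). Dnmt3a was followed by Igf1r, Khnyn and Arhgap19 (0.995 to 0.996). Nearest to Dnmt3b were Fzd10, Epcam and Camk2b (0.996 to 0.997), and Epcam, an epithelial adhesion gene, averaged 18.1 CPM for WT, 143 for KO, 11 for T12h rescue and 22.2 for T48h rescue. Dnmt3l was nearest to Pcsk6, Spred3 and AU018091 (0.993 to 0.997), of which AU018091 stood at 32.9, 59.7, 7.33 and 1.43 CPM in the same order. Tet1 had the lowest likeness of the 8, to Slc7a1, Ifrd2 and Zbtb44 (0.986 to 0.989). Tet2 was nearest to Tspan18, Pygl and Zfp395 (0.995 to 0.997), and Tspan18 rose to 95.6 CPM in the T48h rescue from 27.7 in WT. Tet3 was nearest to Rad54l2, Neo1 and Depdc1b (0.995 to 0.996).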

How the data were processed

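RNA of 16 samples was isolated with RNeasy and DNase and made into TruSeq libraries, per the labels' protocols. The tools named are Cufflinks 2.2.1, TopHat2 2.1.1, deepTools and SAMtools 1.5 and the build is mm10, per the submitters' processing notes. Sources used here name neither the gene annotation nor the strand setting.

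Per the file headers, 1 deposited table holds estimated counts per locus and the other FPKM. In the deposited counts the low values of a column were whole multiples of 1 factor, which was divided out. Within each group, columns of 1 library differed by a mean chi-square per degree of freedom of 1.6 to 1.83, and others by 9.08 to 16.5. Those of 1 library were summed and rounded. The authors' status word in the deposited count table was used to leave out 8 loci set to 0 for too many fragments. Library sizes and tests leave out 5143 unnamed loci (3.16% to 6.12% of counts), and 96 companion columns of per-sample values were not used.

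Genes were tested with edgeR 4.0.16 (R 4.3.3), by the quasi-likelihood F-test with TMM, filterByExpr, group as the only term, all 4 groups in 1 fit with 4 residual degrees of freedom, and Benjamini-Hochberg adjustment over 16130 genes at 0.05. The SE of a log2 fold change is its size over the square root of F. Alternatives used DESeq2 1.42.0, limma 3.58.1 on FPKM, other scalings and filters, and left-out libraries.

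FPKM were averaged over the runs of a library, and limma used log2(FPKM + 1) or, as another alternative, log2(FPKM + 0.1). The members and the 13 lists (131 genes, of which 126 matched exactly 1 locus) were chosen with earlier results of these data known. Named beside the members were, from each of the 7 pathway lists, the 3 genes with the smallest adjusted p in KO against WT at 5 CPM or more, and 3 genes most like each member. Some genes that this rule selects are not reported here. Brdt, Sycp3, Hells, Cdt1, Mcm5, Slbp, Aire and the antisense genes were named after their values were seen. Promoter sequences are from RefSeq.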

Additional observations from a re-analysis of the deposited data

Results flagged for a closer look

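For 5 members the effect of the rescue against the KO differed between induction at T48h and at T12h. This rests on the edgeR test of the rescues against each other, and both effects share the KO libraries. That test called 50.2% of all genes tested, so being called says little about a member. The difference, T48h minus T12h on the log2 scale, was 0.55 for Dnmt3a, 0.77 for Dnmt3b, -1.82 for Dnmt3l, 0.45 for Tet1 and 1.05 for Tet2. Both libraries of the T48h rescue lay on the same side of both T12h libraries for each of the 5. The same held for Dnmt1, Uhrf1 and Tet3, which were not called, and the share of all genes for which it held was not counted.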

How the results depend on the processing

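The 48 results of the members (8 genes in 6 comparisons) were recomputed under 18 alternatives, which gave 864 values. Of these 824 kept both direction and side of the threshold, 14 lost a call, 15 gained one and 11 turned direction. Of 37 called results 33 stayed called in every alternative run. The calls lost in at least 1 alternative were Tet2 in the T12h rescue against the KO, Tet1 in the T12h rescue against WT, and Dnmt3b and Uhrf1 in the T48h rescue against WT. The turned values were near 0 and belonged to results that were not called. Dnmt1 in the T12h rescue against WT, at -0.01, was 0.000767 without chromosome 8 genes and -0.106 to 0.0774 with a library left out. Tet1 in the T48h rescue against WT, at 0.01, was -0.115 with upper-quartile scaling, -0.0433 with no filter on low counts, -0.000993 with only the 2 groups compared, and -0.166 to 0.123 with a library left out. The count of genes called in the T12h rescue against WT, 2261, was 1437 with limma on log2(FPKM + 1) and no filter, and 1070 to 2571 with a library left out. Upper-quartile scaling moved the median log2 fold change of all genes in the T48h rescue to -0.147 against the KO, -0.163 against WT and -0.115 against the T12h rescue. Against WT the split of higher and lower genes went from 3858 and 3769 to 3053 and 4791. A left-out library leaves its group with 1 library, which is then assumed to vary like the other groups. The cause of these changes was not tested. No paired analysis was possible because the columns carry neither a duplicate nor a run number.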
